A study of Mus musculus with 14 samples.

Results

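This account covers 9 integrin subunit genes (Itga1, Itga4, Itga5, Itga8, Itga9, Itgav, Itgb1, Itgb3 and Itgb5) and Vcam1, followed across the ventral and dorsal epicardium of the fetal mouse heart. The 10 genes were chosen by name, and all of them were found among the 15894 genes of the normalized table. RNA-seq was performed on the dissected outer layer of E16.5 hearts, epicardium together with subepicardium, from female and male fetuses. The labels give the genotype Tbx18Cre, a Cre driver of the epicardial Tbx18 gene, for every library and no other allele or treatment. Each library title also carries the word ctrol, and the study's text calls the hearts wild type. The label is the same in all groups, and whether the hearts carried the driver was not checked. There were 3 female ventral and 3 female dorsal libraries (numbers 1 to 3), 4 male ventral libraries (numbers 4 to 7) and 3 male dorsal libraries (numbers 4 to 6), each made from a pool of 2 hearts. A further male library, number 7, was called dorsal in its title and ventral in its tissue field, and it entered no main comparison.

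Integrins are receptors built of one alpha and one beta subunit that tie cells to the extracellular matrix and to neighbouring cells and signal into the cell. The beta1 subunit pairs with many alpha subunits, among them the products of Itga1, Itga4, Itga5, Itga8 and Itga9, while the alpha-v subunit of Itgav pairs with beta1, beta3 and beta5. VCAM1, an immunoglobulin-type protein of the cell surface, is a counter-receptor of alpha4beta1, and the pair is known in the heart for holding the epicardium to the myocardium, since mice that lack either partner fail to keep an epicardial layer.

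For 8 of the 10 genes the RefSeq table of promoter windows (GRCm38.p6) held an entry, and none was held for Itgb3 and Vcam1. The 250 bases before the start of the 3 subunit genes called higher on the ventral side of female hearts are shown, 5′ to 3′ on the strand of the gene, because these genes share that call. All 3 genes lie on the plus strand, and capitals mark GC boxes, read as GGGCGG on either strand.
Itga4, chr2:79255176-79255425: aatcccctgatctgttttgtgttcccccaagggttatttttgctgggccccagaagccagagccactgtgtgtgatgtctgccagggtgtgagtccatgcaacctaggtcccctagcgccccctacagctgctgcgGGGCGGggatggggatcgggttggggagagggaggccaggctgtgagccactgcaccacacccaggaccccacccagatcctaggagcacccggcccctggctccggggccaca
Itgav, chr2:83724147-83724396: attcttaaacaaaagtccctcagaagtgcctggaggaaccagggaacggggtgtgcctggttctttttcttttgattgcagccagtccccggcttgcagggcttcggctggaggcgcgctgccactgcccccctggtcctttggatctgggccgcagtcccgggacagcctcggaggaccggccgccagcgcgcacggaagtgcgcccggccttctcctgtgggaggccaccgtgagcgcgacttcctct
Itgb5, chr16:33829415-33829664: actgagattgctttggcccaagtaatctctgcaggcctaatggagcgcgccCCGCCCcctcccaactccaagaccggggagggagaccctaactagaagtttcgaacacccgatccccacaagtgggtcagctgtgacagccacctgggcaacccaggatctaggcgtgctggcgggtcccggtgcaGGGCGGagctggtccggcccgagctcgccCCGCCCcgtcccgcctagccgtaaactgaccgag
Their GC content was 64.0%, 64.4% and 65.2%, against a median of 52.4% over all 32851 windows in the table. All 8 windows of the group lay above that median, from 55.6% for Itga5 to 68.0% for Itgb1, so this is no trait of the 3 genes alone. A GC box was held by 4 of the 8 windows of the group (Itga4, Itga5, Itgb1 and Itgb5) and by 32.7% of all windows; this motif was added after the letters had been seen. The RefSeq window of Itga9, chr9:118711442-118711691, lies inside the gene as GENCODE places it, so it precedes a start other than the one given here for Itga9. The other motifs were searched on both strands. The WT1 and EGR type motif GCGNGGGCG was in 0 of the 8 windows (4.7% of all), the GATA type AGATAA in 0 (9.99%), CCAAT in 0 (33.8%) and the TEAD type GGAATG in 1, that of Itgb1 (12.6%). A match or its absence describes these letters alone.

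Values are the authors' normalized counts scaled to library size (normalized CPM). Reads on the listed genes numbered 13.9 to 25.2 M per library, at which 3 reads correspond to 0.135 to 0.253 normalized CPM. Even the least expressed gene of the group, Itga4, held between 29 and 382 reads per library, so every member could be measured in every library. The epicardial markers Wt1 and Upk3b were present throughout, with means of 68.8 and 856 in female ventral libraries and 32.0 and 177 in female dorsal ones. Ventricular cardiomyocyte markers were abundant too, and Tnnt2 averaged 6343 and 9282 in the same groups, so the libraries also held cardiomyocyte RNA. In bulk RNA, fewer cells of a type and less RNA per cell cannot be told apart.

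Levels of different genes were compared per length, as normalized CPM per kb of the longest annotated transcript. Over the 13 libraries of settled region, Itgb1 had the highest level, 130.1 ± 37.0 (mean ± SD), and its lowest library was above the highest of any other member. Vcam1 (27.8 ± 10.2), Itgb5 (22.3 ± 6.52) and Itga5 (libraries from 8.95 to 23.9) came next. Each overlapped in range with the gene after it in the order, Itga5 with Itga1 included. Itga1 (9.11 ± 2.43), Itga8 (6.85 ± 1.85), Itgav (5.53 ± 1.96) and Itga9 (4.16 ± 1.80) followed, again with overlapping neighbours. Itgb3 (1.55 ± 0.669) and Itga4 (0.757 ± 0.518) were lowest, and although their ranges overlapped, Itgb3 stood above Itga4 in 13 of 13 libraries.

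**Figure D1:**
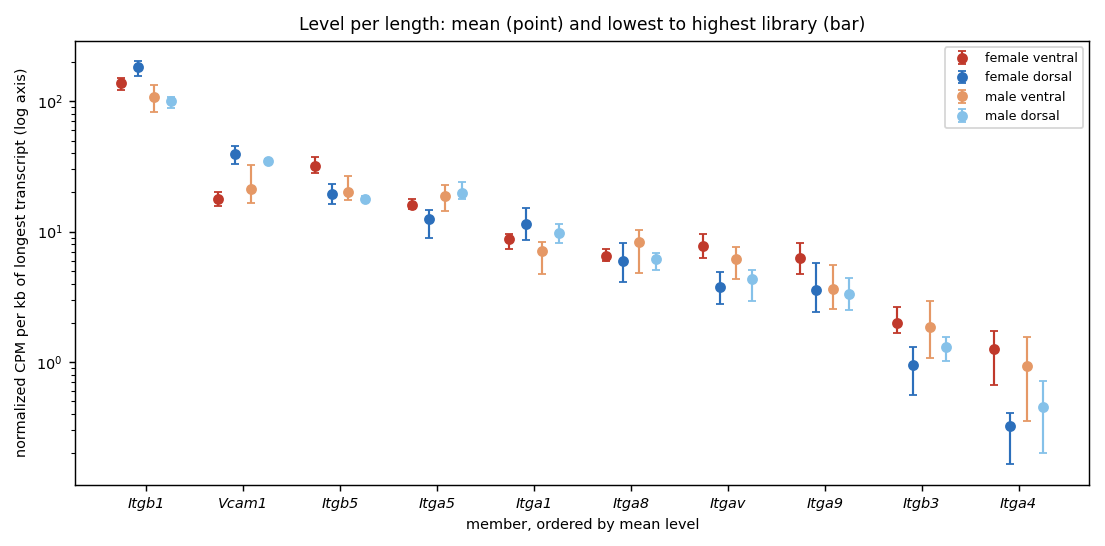
Level per length of each member in the 4 groups, in normalized CPM per kb on a log axis; points are means and bars run from the lowest to the highest library. Itgb1 stands above all other members in every group, and Vcam1 and Itgb5 change places between female ventral and female dorsal libraries.

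The order of Vcam1 and Itgb5 differed between regions. In female ventral libraries Itgb5 (32.1 ± 4.58 per kb) was above Vcam1 (17.9 ± 2.21) in 3 of 3 libraries, and in female dorsal libraries Vcam1 (39.3 ± 6.19) was above Itgb5 (19.5 ± 3.49) in 3 of 3. The same 2 genes could not be separated in male ventral libraries, where Vcam1 (21.4 ± 7.49) was above Itgb5 (20.2 ± 4.29) in 1 of 4. In male dorsal libraries Vcam1 (34.8 ± 1.34) was above Itgb5 (17.9 ± 0.862), and their ranges did not overlap.

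The first question was whether the genes differ between the ventral and dorsal epicardium of female hearts. Itga4, Itgav and Itgb5 were higher ventrally and Vcam1 was higher dorsally. These 4 of 10 members were called by limma on log2(normalized CPM + 1), at a Benjamini-Hochberg adjusted p under 0.05 over the 14411 genes tested, 3 in the ventral direction, in which 14.5% of all genes were called, and 1 in the dorsal direction, in which 13.3% were called. These shares depended on single libraries, and without female ventral replicate 2 limma called 15.4% of all genes in either direction together, 16.1% without female dorsal replicate 2. The median log2 change of the 10 members was 0.55 (ventral minus dorsal), beside 0.011 over all genes tested. All ventral libraries stood above all dorsal ones for 5 members (23.2% of all genes), and all dorsal above all ventral for 2 (21.6% of all genes). Below, values are normalized CPM in the order of the library numbers.

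**Figure D2:**
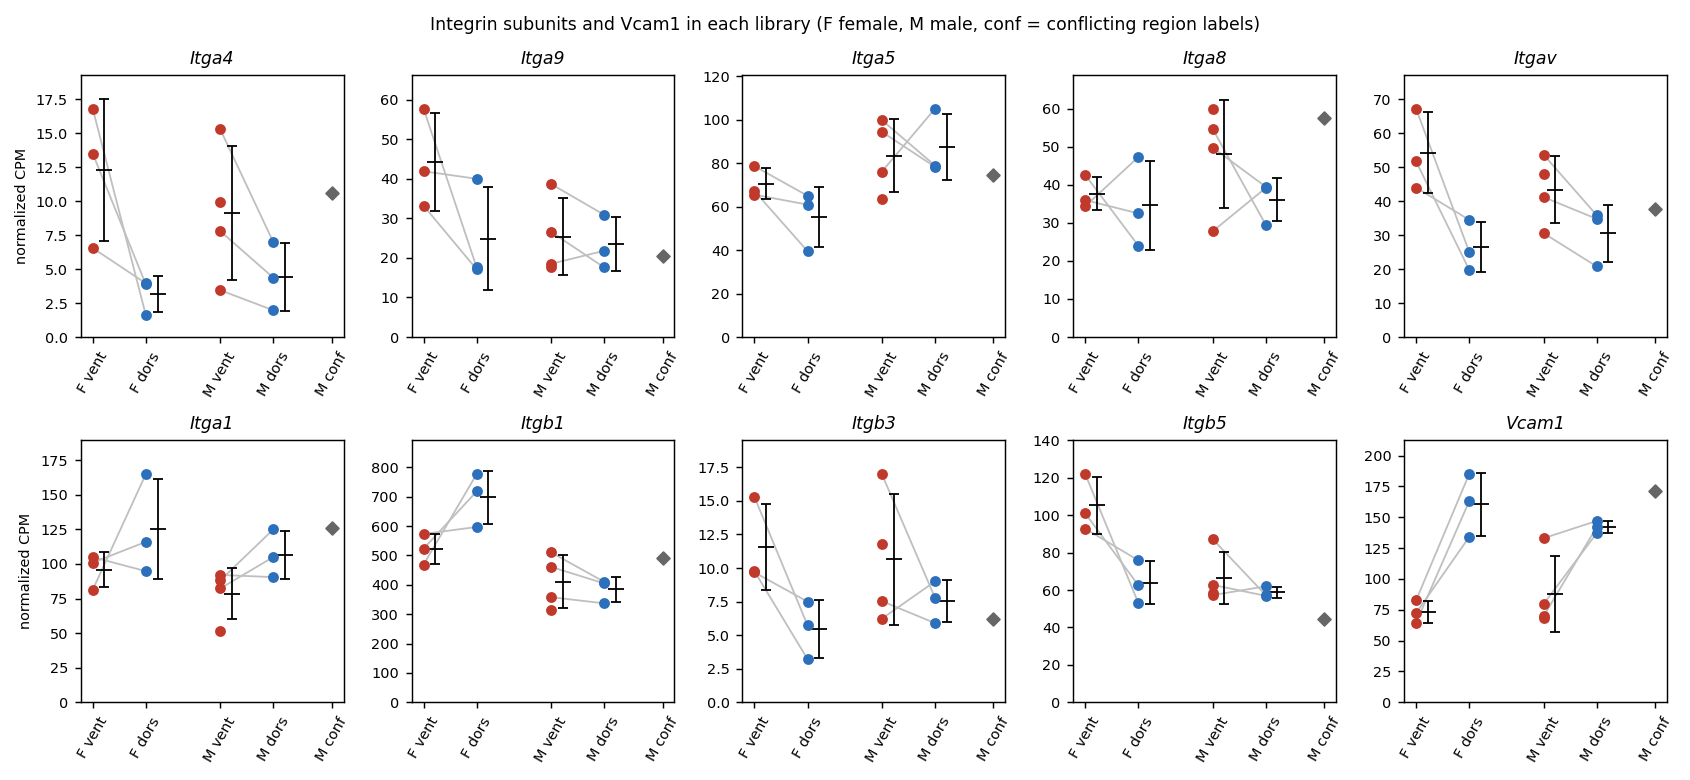
Normalized CPM of the 10 members in each library, by sex and region; grey lines join libraries of one number, bars show mean ± SD, and the diamond is the male library with conflicting region labels. In female libraries Itga4, Itga5, Itgav, Itgb3 and Itgb5 lie higher ventrally without overlap, Itgb1 and Vcam1 lie higher dorsally, and male groups overlap for all members but Vcam1.

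Itga4 (chromosome 2 of GRCm38, 79255426 to 79333123, plus strand) codes for the alpha4 subunit, the VCAM1 and fibronectin receptor. It measured 6.55, 16.8 and 13.5 in the ventral libraries and 3.95, 1.61 and 3.87 in the dorsal ones. Every ventral library was above every dorsal one, although the ventral library numbered 1 was close to the dorsal values. The log2 change was 1.65 (SE 0.401, limma adjusted p = 0.0148, 3.14-fold on the scale with the pseudocount). The call was lost without female ventral replicate 2 (1.40, adjusted p = 0.0654) and without female dorsal replicate 2 (1.35, adjusted p = 0.0527). Exons of Cerkl overlap the gene on the opposite strand and 7.2% of the 60-base windows of Itga4 also occur in other genes, Cerkl among them, so reads could be shared as far as the counting split them. Cerkl itself held 0.0205 to 2.42 normalized CPM over all libraries.

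Itga9 (chromosome 9, 118606690 to 118901003, plus strand), the alpha subunit of a receptor for tenascin-C, EMILIN1 and SVEP1 that is known from lymphatic valves, measured 41.9, 57.7 and 33.2 ventrally and 40.0, 17.6 and 17.1 dorsally. The dorsal library numbered 1 lay within the ventral range, and the other dorsal libraries were below all ventral ones. The log2 change of 0.88 (SE 0.324) missed the threshold (limma adjusted p = 0.0689) and passed it when replicate number was fitted as a block (adjusted p = 0.0314).

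The RGD-binding alpha subunits were unlike one another. Itgav (chromosome 2, 83724397 to 83806916, plus strand), which codes for the vitronectin receptor's alpha subunit, measured 44.0, 51.7 and 67.2 ventrally and 34.5, 19.8 and 25.1 dorsally. The groups did not overlap, and the log2 change was 1.02 (SE 0.232, limma adjusted p = 0.0109, 2.03-fold). Of the 60-base windows of Itgav, 5.3% also occur in Gm13684. Itga5 (chromosome 15, 103344286 to 103366763, minus strand), the alpha subunit of the main fibronectin receptor, measured 65.5, 78.6 and 67.2 ventrally and 60.9, 65.0 and 39.5 dorsally. The ventral libraries were again all above the dorsal ones, by a narrow margin, and the log2 change of 0.38 (SE 0.197, limma adjusted p = 0.183) was not called. Itga8 (chromosome 2, 12106632 to 12301922, minus strand), whose product binds nephronectin, measured 34.4, 36.0 and 42.6 ventrally and 47.3, 32.5 and 24.0 dorsally. The dorsal libraries spanned the ventral ones, with a log2 change of 0.16 (SE 0.236, limma adjusted p = 0.636). E030013I19Rik overlaps Itga8 in exons on the opposite strand and held 0.0293 to 4.27 normalized CPM.

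Itga1 (chromosome 13, 114953096 to 115101964, minus strand) codes for the alpha subunit of a collagen receptor. It measured 101, 81.4 and 105 ventrally and 116, 165 and 94.8 dorsally, and the dorsal library numbered 3 lay within the ventral range. The log2 change of -0.35 (SE 0.204, limma adjusted p = 0.223) was not called, and with each library corrected for GC content and transcript length it was -0.69 (limma adjusted p = 0.0469). Gm49395, which overlaps Itga1 on the same strand and shares 3.1% of its 60-base windows, held 5.13 to 11.0 normalized CPM.

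Of the beta subunits, Itgb5 (chromosome 16, 33829665 to 33949338, plus strand), the partner of alpha-v in a vitronectin receptor, measured 92.8, 101 and 122 ventrally and 75.9, 62.6 and 53.1 dorsally. The groups did not overlap, and the log2 change was 0.72 (SE 0.171, limma adjusted p = 0.0134, 1.65-fold). For Itgb5, 6.9% of the 60-base windows also occur in Gm38317. Itgb3 (chromosome 11, 104608000 to 104670476, plus strand), the other vitronectin receptor subunit and also a platelet integrin, measured 9.68, 15.3 and 9.77 ventrally and 7.50, 5.74 and 3.22 dorsally. The groups did not overlap here either, and the log2 change of 0.98 (SE 0.335) had a limma adjusted p of 0.0530, which was 0.0376 with replicate number as a block. Itgb1 (chromosome 8, 128685654 to 128733200, plus strand), the common beta subunit, went the other way, with 469, 523 and 573 ventrally and 777, 718 and 597 dorsally. Every dorsal library was above every ventral one, but the log2 change of -0.41 (SE 0.162, limma adjusted p = 0.0842) was not called. DESeq2 on the recovered reads called both Itgb1 (-0.44) and Itgb3 (1.05).

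Vcam1 (chromosome 3, 116109949 to 116129688, minus strand) measured 82.6, 64.6 and 72.4 ventrally and 185, 163 and 134 dorsally. Its dorsal libraries were far above the ventral ones, and the log2 change of -1.12 (SE 0.160, limma adjusted p = 0.00159, 2.17-fold higher dorsally) was the only call in that direction among the members. Vcam1 and its receptor subunit Itga4 thus differed between the regions in opposite directions. The calls of Vcam1, Itgav and Itgb5 held in all 17 alternatives computed for each of them.

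**Figure D3:**
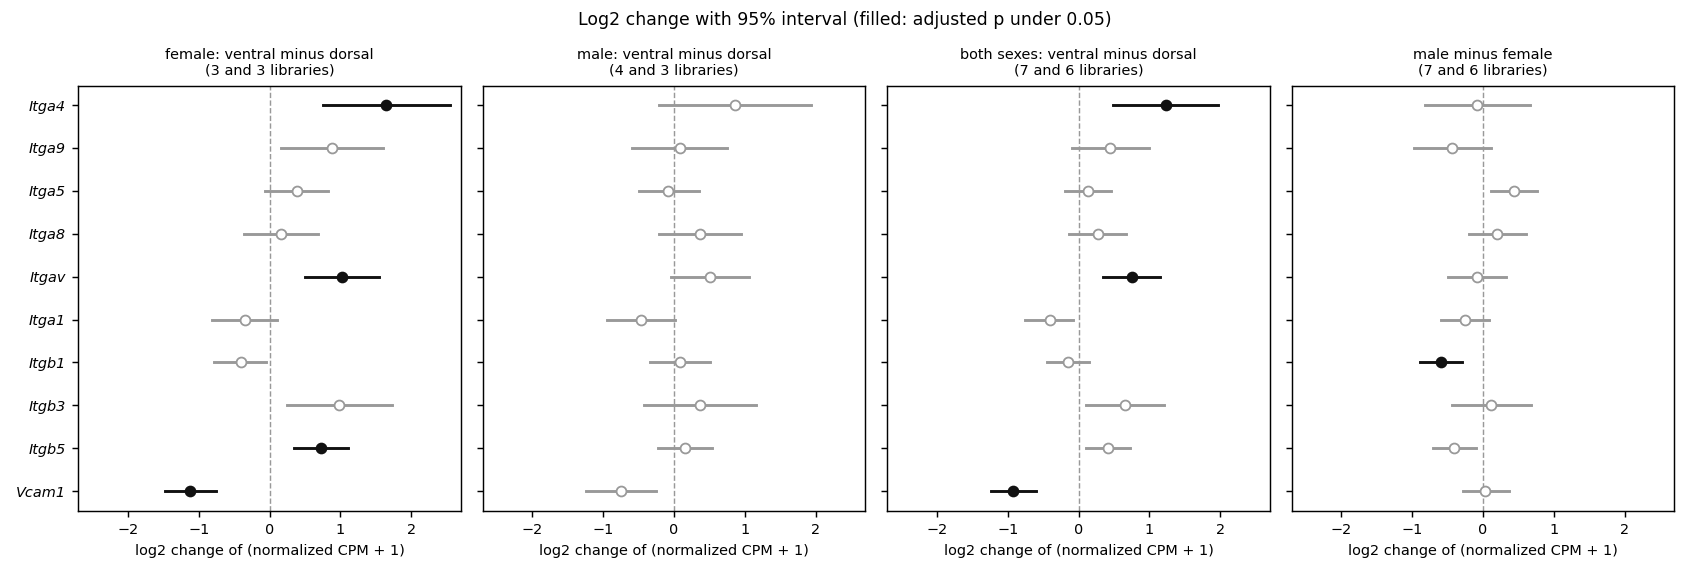
Log2 change of normalized CPM + 1 for each member with its 95% interval from limma, in 4 comparisons; filled points had an adjusted p under 0.05. Itga4, Itgav, Itgb5 and Vcam1 are filled in female hearts, none in male hearts, Itga4, Itgav and Vcam1 in both sexes together, and Itgb1 in the comparison of the sexes.

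In male hearts the same comparison called 0 of the 10 members by limma, among 14917 genes of which 0% were called (140 genes by DESeq2, and 76 by limma with replicate number as a block). By unadjusted p under 0.05, 1 member passed, in the dorsal direction, where 7.12% of all genes did, and edgeR and DESeq2 on the recovered reads called 0 members. The member was Vcam1, with 69.7, 133, 79.6 and 68.1 in the ventral libraries numbered 4 to 7 and 142, 147 and 137 in the dorsal libraries numbered 4 to 6. All dorsal libraries were above all ventral ones, as they were for 7.82% of all genes, and the ventral library numbered 5 stood close to the dorsal level. The log2 change was -0.75 (SE 0.221, unadjusted p = 0.00681, limma adjusted p = 0.285).

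The male values of the subunits called in females overlapped between the regions. Itga4 measured 3.45, 7.80, 15.3 and 9.93 ventrally and 1.97, 4.37 and 6.99 dorsally, a log2 change of 0.86 (SE 0.481, limma adjusted p = 0.435). Itgav measured 30.6, 41.2, 53.7 and 48.0 ventrally and 20.8, 34.8 and 35.9 dorsally, a log2 change of 0.51 (SE 0.250, limma adjusted p = 0.395). For both genes the lowest ventral library was number 4, and the lowest dorsal library carried the same number. Itgb5 measured 57.3, 62.8, 87.2 and 58.4 ventrally and 62.0, 56.9 and 57.3 dorsally, so that the ventral library numbered 6 alone stood above the rest (log2 change 0.15, SE 0.174, limma adjusted p = 0.703). The log2 changes of the remaining 6 subunits lay between -0.46 (Itga1) and 0.37 (Itgb3), with limma adjusted p of 0.368 or more.

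Whether the regional change differed between the sexes was tested as an interaction over the 13 libraries of settled region. Limma called 0 of the 10 members, while 2.73% of the 15772 genes tested were called (5.1% with replicate number as a block and 4.99% by DESeq2), and edgeR and DESeq2 called 0 members. By unadjusted p under 0.05, 1 member passed, in the negative direction, where 7.41% of all genes did. It was Itgb5 (male minus female regional change -0.57, SE 0.248, unadjusted p = 0.0379, limma adjusted p = 0.287). For Itga4 the difference was -0.79 with a 95% interval from -2.25 to 0.67, for Itgav -0.52 (-1.30 to 0.26) and for Vcam1 0.37 (-0.26 to 1.0). These intervals leave room for equal changes as well as for changes that differ by more than 1 on the log2 scale in the case of Itga4 and Itgav.

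Over both sexes, with sex as a covariate, 7 ventral libraries were compared with 6 dorsal ones. Itga4 and Itgav were called higher ventrally, a direction in which 9.8% of the 15772 genes tested were called, and Vcam1 was called higher dorsally, where 9.06% were called. Without female dorsal replicate 2, 9.09% of all genes were called in both directions together. The median log2 change of the 10 members was 0.34, beside 0.035 over all genes. Vcam1 had the log2 change of -0.92 (SE 0.153, limma adjusted p = 0.00614, 1.89-fold higher dorsally). All 7 ventral libraries lay below all 6 dorsal ones, as for 2.17% of all genes, with male ventral number 5 at 133 next to female dorsal number 3 at 134. Itgav changed by 0.75 (SE 0.191, limma adjusted p = 0.0176), and the calls of Vcam1 and Itgav held in all 26 alternatives computed for each. Itga4 changed by 1.23 (SE 0.347, limma adjusted p = 0.0251). That call was lost in 6 of 25 alternatives: without female ventral replicate 2 (adjusted p = 0.0646), female ventral replicate 3 (0.0587), female dorsal replicate 2 (0.0646) or male dorsal replicate 4 (0.0557), under quantile normalization (0.0514) and with the library of conflicting labels taken as dorsal (0.0583). Itgb5 (0.42, SE 0.143, limma adjusted p = 0.0528), Itga1 (-0.41, SE 0.158, adjusted p = 0.0787) and Itgb3 (0.66, SE 0.260, adjusted p = 0.0878) came near the threshold without passing it. Itgb5 was called in 9 of 26 alternatives (adjusted p down to 0.0306, under quantile normalization), Itga1 in 2 of 26 (0.0258 with GC and length correction, 0.0461 with the library of conflicting labels as dorsal) and Itgb3 in 2 of 25 (0.0479 by DESeq2, 0.0369 without male ventral replicate 5).

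Within the 6 numbers that have both a ventral and a dorsal library, the ventral value was above the dorsal one in 6 of 6 for Itga4 and for Itgav, and in 0 of 6 for Vcam1. The log2 difference ran from 0.59 to 2.77 for Itga4, from 0.24 to 1.39 for Itgav and from -1.32 to -0.15 for Vcam1. It was above 0 in 5 of 6 for Itga5, Itga9, Itgb3 and Itgb5, in 4 for Itga8, in 3 for Itgb1 and in 2 for Itga1. For Itgb1 the 3 numbers below 0 were the female ones and the 3 above 0 were the male ones, from -0.73 to -0.06 and from 0.09 to 0.31.

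The sexes were compared with region as a covariate, over 7 male and 6 female libraries. Itgb1 was the one member called, lower in male hearts, where 6.54% of all genes were called. It measured 522 ± 52.2 and 697 ± 91.3 in female ventral and dorsal libraries (n = 3 each), against 411 ± 90.1 (n = 4) and 384 ± 40.6 (n = 3) in male ones. In dorsal libraries the sexes did not overlap, with 597 to 777 in females and 337 to 410.3 in males, and in ventral libraries 1 male library (510.5) lay within the female range of 469 to 573, with the others below it. The log2 change was -0.59 (SE 0.140, limma adjusted p = 0.0128, 1.51-fold), and it was called in all 26 alternatives (adjusted p 0.00157 to 0.0420). Itga5 (0.43, SE 0.154, limma adjusted p = 0.0848) and Itgb5 (-0.41, SE 0.143, limma adjusted p = 0.0823) came next and were not called. Female libraries carry the numbers 1 to 3 and male ones 4 to 7, so sex and series of pools cannot be told apart. Ventral and dorsal libraries of one number entered this comparison as separate libraries. When they were averaged, 5.99% of all genes were called in either direction, against 10.9% in the main fit.

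Markers of some cell types also differed between the regions. Beside the counts below, limma called 14.5% of all genes higher ventrally and 13.3% higher dorsally in female hearts. In female hearts, 9 of 10 epicardial markers were called higher ventrally, and their summed level was 1751 to 2804 ventrally against 342 to 643 dorsally. Fibroblast markers (6 of 8 called, 3 by edgeR; sums 8041 to 15793 and 1934 to 3239) and macrophage markers (5 of 6 called; 129.9 to 262 and 44.6 to 79.5) were higher ventrally as well. For Itgb3, the platelet list had 1 of 5 tested markers called, Pf4, and summed to 71.6 to 166 ventrally and 25.4 to 62.4 dorsally. Pf4 alone measured 68.1 to 161 and 14.7 to 55.2, and 3 of the 5 markers changed below 0 (median log2 change -0.4). Itga2b, the alpha partner of beta3 in platelets, measured 3.84 ± 2.10 and 4.35 ± 1.53 (n = 3 each). Lymphatic endothelial markers, a cell type in which Itga9 is known, were called higher ventrally in 3 of 6 cases (2 by edgeR and DESeq2, 5 with replicate number as a block), with sums of 238 to 1896 and 102 to 289.6. On the side of Vcam1, markers of smooth muscle and pericytes summed to 797 to 1218 ventrally and 1319 to 1640 dorsally in female hearts (3 of 8 called higher dorsally and 2 higher ventrally). Blood endothelial markers (0 of 6 called in either direction; 323 to 610.3 and 422 to 531) and ventricular cardiomyocyte markers (2 of 10 called, both higher ventrally; 22598 to 32679 and 29696 to 44924) overlapped there. Most of the cardiomyocyte list ran dorsally, however, with 8 of 10 changes below 0 (median log2 change -0.35). Beside 2 markers higher ventrally, DESeq2 called 3 higher dorsally and edgeR called 1.

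**Figure D4:**
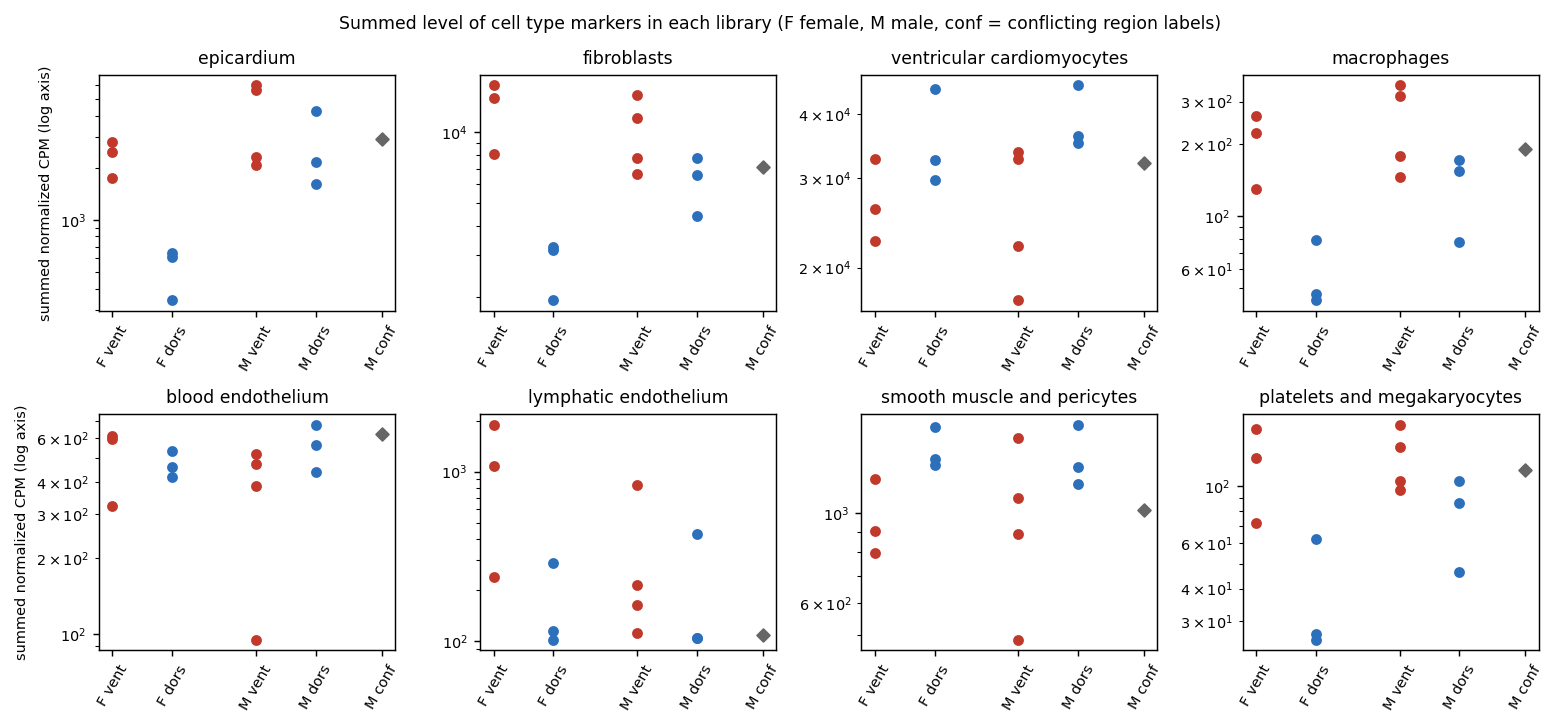
Summed normalized CPM of 8 marker lists in each library on a log axis, by sex and region, with the library of conflicting region labels as a diamond. Epicardial, fibroblast, macrophage and platelet sums are higher in female ventral than in female dorsal libraries without overlap, and male cardiomyocyte sums are higher dorsally without overlap. Pf4 makes up most of the platelet sums in female libraries.

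In male hearts the cardiomyocyte sums did not overlap between ventral (17254 to 33785) and dorsal libraries (35222 to 45652), and the epicardial sums did (2065 to 5995 and 1599 to 4280). Male ventral library number 7 stood low in blood endothelial markers (95.2, against 388 to 518 in the other male ventral libraries) and in smooth muscle markers (486, against 889 to 1534), and it stood high in erythroid markers (3 of 6 listed; 291, against 33.6 to 68.1). Erythroid sums in the remaining groups ran from 38.1 to 122. Without it the male log2 change of Vcam1 was -0.65, still without a call by limma. Over both sexes, 8 of 10 epicardial markers were called higher ventrally and 2 of 10 cardiomyocyte markers higher dorsally. Between the sexes, 5 of 10 epicardial markers were called higher in males, as were 694 of all 15772 genes tested, and 0 of 10 cardiomyocyte markers were called. Schwann cell or neuronal markers (3 of 6 listed) summed to 3.02 to 29.5 over the settled libraries. No list had a marker at 3 reads or fewer in all libraries of a group. The part of these cell types in the changes of the members was not tested.

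Genes around the members were read from lists of other integrin subunits, ligands, cell surface adhesion molecules and proteins of the adhesion complex. For comparison, limma called 14.5% of all genes higher ventrally and 13.3% higher dorsally in female hearts. Over both sexes these shares were 9.8% and 9.06%. In female hearts 9 of 16 ligands were called on the ventral side and 0 on the dorsal side, with a median log2 change of 1.39. Some of the ligands that partner the members were among them. Npnt, the ligand of alpha8beta1, changed by 2.44 (SE 0.416, limma adjusted p = 0.00326). Fn1, the fibronectin gene, rose from 169 ± 70.4 dorsally to 429 ± 155 ventrally (log2 change 1.37, SE 0.340, adjusted p = 0.0162, n = 3 each). Of the ligands of alpha9beta1, Svep1 (2.20, SE 0.516, adjusted p = 0.0128) and Emilin1 (1.48, SE 0.191, adjusted p = 0.00101) were called, and Tnc (1.57, SE 0.744, adjusted p = 0.143) was not. Col1a1, a collagen I chain, had the largest change of the list (2.46, SE 0.302, adjusted p = 8.23e-04), and Vtn, the vitronectin gene, averaged 1.19 and 1.95 normalized CPM with no call (-0.48, SE 0.521, adjusted p = 0.528).

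Over both sexes, 8 of 16 ligands were called higher ventrally, with a median of 1.05, Fn1 (1.02, SE 0.253, limma adjusted p = 0.0153), Npnt (1.54, SE 0.388, adjusted p = 0.0165), Svep1 (1.28, SE 0.411, adjusted p = 0.0412), Emilin1 (0.90, SE 0.188, adjusted p = 0.00879) and Tnc (1.55, SE 0.420, adjusted p = 0.0217) included. In male hearts limma and edgeR called 0 of 15 (5 by unadjusted p under 0.05, 1 by DESeq2 and 2 by limma with replicate number as a block), with a median of 0.62. By limma and by edgeR 1 ligand, Emilin1, had a regional change called different between the sexes (-1.08, SE 0.258, limma adjusted p = 0.0360), with 98.1 ± 14.6 against 35.0 ± 8.08 in females (n = 3 each) and 89.3 ± 8.91 (n = 4) against 68.4 ± 13.9 (n = 3) in males. DESeq2 called 2 ligands in this test and limma with replicate number as a block called 4, all in the same direction, and with the block 7 of 10 epicardial markers were called too, against 0 without it.

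Of 17 other integrin subunits, 13 were in the table and Itga10, Itgad, Itgae and Itgax were not. In female hearts 3 of the 11 tested were called higher ventrally and 0 higher dorsally, led by Itga3 (1.76, SE 0.256, limma adjusted p = 0.00178) and Itga7 (1.69, SE 0.468, adjusted p = 0.0250), both laminin receptor subunits. Over both sexes the counts were 4 and 0 of 13 (2 and 0 by edgeR and with replicate number as a block), led by Itgb8 (1.28, SE 0.431, adjusted p = 0.0499) and Itga7 (1.24, SE 0.332, adjusted p = 0.0204), the first of them just under the threshold. Among 6 cell surface adhesion molecules, Cadm1 (1.72, SE 0.344, adjusted p = 0.00617) and Alcam (1.45, SE 0.365, adjusted p = 0.0172) were called higher ventrally in females, and 0 were called in the direction of Vcam1. The other genes of this list, Icam1, Icam2, Madcam1 and Cd44, were not called in either direction. Over both sexes Cadm1 alone was called (1.09, SE 0.359, adjusted p = 0.0459), and edgeR called 0 of 6.

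The adhesion complex, the cytoplasmic proteins that join integrins to actin and to signalling, went both ways in female hearts, with 8 of 21 tested genes called higher ventrally and 4 higher dorsally (median 0.24). Beside these counts, 14.5% and 13.3% of all genes were called in the same directions. The kinase Src (1.62, SE 0.368, limma adjusted p = 0.0110) and the tensin Tns3 (1.33, SE 0.209, adjusted p = 0.00242) led the ventral side, and the adaptor Bcar1 (-0.96, SE 0.229, adjusted p = 0.0140) and Lims2 (-0.75, SE 0.237, adjusted p = 0.0414) the dorsal side. Over both sexes 6 were called higher ventrally, Src (1.02, SE 0.311, adjusted p = 0.0336) and Tns3 (0.93, SE 0.193, adjusted p = 0.00848) among them, and 2 higher dorsally, Vcl, which codes for vinculin (-0.61, SE 0.181, adjusted p = 0.0311), and Fermt2, which codes for an integrin activator of the kindlin family (-0.45, SE 0.0946, adjusted p = 0.00878). Shares of all genes called over both sexes were 9.8% ventrally and 9.06% dorsally. In male hearts limma, edgeR and DESeq2 called 0 genes of the 3 lists of subunits, adhesion molecules and complex proteins, against 1, 0 and 6 by unadjusted p under 0.05. Between the sexes 4 complex genes were called higher in males (694 of all 15772 genes were), led by Fermt3 (0.96, SE 0.248, adjusted p = 0.0205) and Vcl (0.61, SE 0.181, adjusted p = 0.0418). In the other direction 1 was called, the adaptor Crk (-1.43, SE 0.121, adjusted p = 3.62e-06).

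The genes whose pattern was most like that of a member were found by Pearson's r of log2(normalized CPM + 1) over the 13 libraries, among 9592 genes with a mean of at least 10. These libraries share the contrast of region and sex, and pairs of them share a number, so the values are descriptions. For Vcam1 the nearest gene was Usp28 (r = 0.974, Spearman's rho = 0.973), for Itgav Antxr1 (0.982 and 0.989), for Itga4 Gli3 (0.951 and 0.918) and for Itgb5 Furin (0.954 and 0.907). For Itgb1 it was Slc30a5 (0.943 and 0.951), for Itga1 Mrm3 (0.940 and 0.907) and for Itgb3 Dennd4c (0.926 and 0.945). Itga5 (Ncln, 0.894 and 0.830), Itga9 (Zc3h13, 0.866 and 0.896) and Itga8 (Sar1a, 0.856 and 0.879) had looser neighbours. Itgav, chosen after its value was seen, was itself among the 3 genes most like Itga4 (0.942 and 0.956).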

How the data were processed

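The authors trimmed reads with Cutadapt, discarded short ones, quantified them on the GRCm38 transcriptome with RSEM (version 1.3.1 per the labels), normalized with limma and filtered for genes that reached 1 CPM in at least 3 samples. What they deposited is a signal in normalized CPM, that is, reads plus an offset of 0.5 over an effective library size. Within 0.02 reads, 100.0% of the values came out as whole reads. Whether counting used strand is not given in the sources used here. Poly(A) libraries were single reads of 60 bases.

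Tests were two-sided and used limma 3.58.1 in R 4.3.3 (lmFit and trended eBayes) on log2(normalized CPM + 1), for genes that reached 1 in 3 or more of the fitted libraries, with Benjamini-Hochberg adjustment over all genes tested. The pseudocount of 1 understates the change of low genes, Itga4 and Itgb3 here. Scripts were tested on simulated data. The members, the lists and the rule for naming genes (all members, the 2 called genes of each list with the largest change in each direction, and partner ligands) were chosen with earlier results of these data known. Alternatives were another pseudocount (0.1), no filter or a mean of at least 10, median of ratios and quantile scaling, eBayes without trend, edgeR 4.0.16 and DESeq2 1.42.0 on recovered reads, a correction of each library for GC content and length (splines with 5 degrees of freedom), each library left out, the replicate number as a block, and the library of conflicting labels as dorsal or ventral. For the sexes, the libraries of one number were also averaged. Ventral and dorsal libraries with the same number departed from their group means in a correlated way (15772 genes, correlations 0.187, 0.169 and 0.27 in females, 0.427, 0.175 and 0.351 in males). Libraries of different numbers gave -0.369 to 0.295, the highest for male ventral number 7 with male dorsal number 6. The consensus correlation within one number was 0.0124 in the fit of the sexes. Numbers were taken to pair libraries in the block alternatives, and the sources do not say what a number marks. Litters were not assigned to libraries, and the main fits took each library as independent, so p-values measure the spread between libraries. Positions and lengths are from GENCODE M21, which held 99.9% of the identifiers. The 95% intervals are from limma and rest on the spread between libraries, and the floor of 3 reads covers counting error only.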

Additional observations from a re-analysis of the deposited data

How the results depend on the processing

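Members called in female hearts numbered 3 to 6 (without one library each, 3 to 6), in male hearts and in the interaction 0 under every alternative run. Over all genes, the female calls fell from 4007 to 2158 without female ventral replicate 2 and to 2291 without female dorsal replicate 2, and those over both sexes from 2974 to 1429 without female dorsal replicate 2 and to 1557 and 1739 without female ventral replicates 2 and 3. The count over both sexes was 5 by DESeq2 (Itgb3 and Itgb5 added) and 2 to 5 without one library each, 5 of them without male ventral replicate 5. The count between the sexes was 2 by DESeq2, after GC and length correction and with the conflicting library as dorsal (Itgb5 added), and 1 to 2 without one library each, 2 of them without female dorsal replicate 3 or male ventral replicate 7. With the replicate block, 6 members were called in females, 3 over both sexes and 1 between the sexes; apart from Itga9 and Itgb3 in females, the block changed no call of a member, and with GC correction it added Itga1 in females as that correction alone did.

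Changes of sign fell on uncalled values. In male hearts they were Itga5 under quantile normalization (0.01) and the block (0.05) and Itgb1 with the conflicting library as dorsal (-0.01); over both sexes, Itga5 with GC correction (-0.03) and Itgb1 with block and GC correction (0.01). Between the sexes, GC correction gave Itga1 0.01, Itga4 0.19 and Itgav 0.13, averaging of one number's libraries gave Itga4 0.08, Itgav 0.02 and Vcam1 -0.11, and the conflicting library as dorsal gave Itga4 0.10. The interaction of Itga1 was 0.16 with GC correction, 0.08 with the block, 0.32 with both and 0.03 with the conflicting library as ventral. Without one library each, signs crossed 0 for Itga8 in females (-0.06 to 0.41), Itga5 (-0.17 to 0.06), Itga9 (-0.14 to 0.29) and Itgb1 (-0.04 to 0.20) in males, Itga4 (-0.26 to 0.12), Itgav (-0.19 to 0.02), Itgb3 (-0.04 to 0.25) and Vcam1 (-0.09 to 0.10) between the sexes, and Itga1 (-0.33 to 0.08) and Itga8 (-0.05 to 0.44) in the interaction. The cause of these shifts was not tested. Depth limits Itga4 most, which had 29 reads in 2 dorsal libraries.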

Other observations

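The male library whose title says dorsal and whose tissue field says ventral entered no main comparison above and was used only in alternatives. Its values in normalized CPM were 171 for Vcam1, 493 for Itgb1, 126 for Itga1, 74.5 for Itga5 and 57.7 for Itga8. It held 44.7 for Itgb5, 37.7 for Itgav, 20.5 for Itga9, 10.6 for Itga4 and 6.20 for Itgb3. Its Vcam1 value lay within the range of the 6 dorsal libraries and above all 7 ventral ones, and its Itga4 value lay above all 6 dorsal libraries and within the ventral range. Its summed markers were 2932 for the epicardium, 32154 for ventricular cardiomyocytes and 7112 for fibroblasts.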
